A study of Mus musculus with 6 samples.

Results

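Macrophages and related myeloid cells live in the kidney between the tubules, where they take up debris, sense antibody and microbial products, and depend on the receptor encoded by Csf1r for survival. Many of their genes are switched on by the transcription factor PU.1, the product of Spi1, and are barely expressed outside blood cell lineages. A set of 34 such macrophage and myeloid genes was chosen by name and followed through all probes whose RefSeq accession mapped to them. The array carried 51 probes for these 34 genes, among 23785 genes with a symbol. Of the 34, 32 passed the filter on dim probes and could be tested, and Msr1 and Siglec1, both receptors of tissue macrophages, did not pass.

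RNA from whole kidney was measured on 6 Agilent arrays, 3 from Pck1-CKO mice and 3 from mice labelled wild-type (WT), all C57BL/6J and 32 weeks old. Pck1-CKO mice carried 2 floxed Pck1 alleles and a γGT-Cre transgene, which drives recombination in the proximal tubule. The WT animals were littermates matched for age and sex, and the breeding could give controls that were Pck1 flox/flox, Pck1 flox/+ or Pck1 flox/+ with γGT-Cre. Whether the arrays stand for different mice is not stated in the labels. The p-values therefore rest on the spread between samples, part of which may be technical.

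Between 37118 and 38708 of 56605 probes lay well above background on an array. The 1 Pck1 probe read 6.44, 6.60 and 6.90 in the arrays labelled Pck1-CKO and 6.30, 6.32 and 5.63 in those labelled WT (normalised log2 signal, limma adjusted p = 0.152), and its position relative to the deleted stretch is not known here, so it checks no label. Every direction in the text therefore goes by the array labels alone. Of 17136 genes tested, 743 were higher and 634 lower in Pck1-CKO at a limma adjusted p under 0.05, which is 8.04% of all genes. With arrays scaled to their median instead of their 75th percentile the split was 2434 higher and 560 lower. The total was 25 without Pck1-CKO 1, 29 without Pck1-CKO 2, 70 without WT 1 and 35 without WT 2. Pck1-CKO and WT arrays lay in different rows of 1 slide, so row and genotype cannot be told apart. All 8 proximal tubule markers and all 6 endothelial markers listed for comparison passed the filter on dim probes, and 0 of either list passed the limma test. Before adjustment, p was under 0.05 for 2 of the 8 and 2 of the 6, against 31.2% of all genes. The lowest p-values in these 2 lists were those of Slc22a6, a tubular anion transporter (log2 change 0.30, limma adjusted p = 0.0967), and of Plvap, an endothelial diaphragm protein (-0.12, limma adjusted p = 0.0994). The probes used for the defining macrophage genes Adgre1, Csf1r, Cd68, Tyrobp and Aif1 were well above background on all 6 arrays. So were those of 30 of the 32 tested genes, all but Cd163 and Spi1.

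PU.1 binds purine-rich sites with a GGAA core, and promoters are shown to let a reader see such letters in genes whose values are discussed most. RefSeq promoters (GRCm38.p6) of 300 bases, with 250 before the gene start, were at hand for 23 of the 34 genes. The letters GAGGAA occurred on either strand in promoters of 13 of these 23 genes (56.5%), against 31.3% of 27025 genes with a promoter. The longer GAGGAAGT, which contains GAGGAA, occurred in 1 of the 23 (Fcgr4), or 4.35%, against 3.69% of all genes. The C/EBP-like letters TTGCNNAA, whose overlap with the other motifs was not counted, occurred on either strand in 4 of the 23 (17.4%), against 12.2% of all genes. These are matches of letters and not measured binding sites. Shown are the 3 genes with the lowest p among those that hold GAGGAA within 180 bases before to 20 bases after the start, 5′ to 3′ on the gene's strand, with GAGGAA or its reverse complement TTCCTC in capitals. They lie at chrX:9469305-9469504 (minus strand) for Cybb, chr7:128062460-128062659 (plus strand) for Itgam and chr11:17008699-17008898 (minus strand) for Plek.
Cybb: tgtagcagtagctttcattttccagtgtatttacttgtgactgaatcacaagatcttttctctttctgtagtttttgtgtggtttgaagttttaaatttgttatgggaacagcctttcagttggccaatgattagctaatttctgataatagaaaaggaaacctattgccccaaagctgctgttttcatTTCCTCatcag
Itgam: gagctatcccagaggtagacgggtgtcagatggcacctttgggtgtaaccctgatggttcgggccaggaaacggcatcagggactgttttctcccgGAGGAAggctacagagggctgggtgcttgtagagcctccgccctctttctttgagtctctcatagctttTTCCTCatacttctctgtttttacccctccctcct
Plek: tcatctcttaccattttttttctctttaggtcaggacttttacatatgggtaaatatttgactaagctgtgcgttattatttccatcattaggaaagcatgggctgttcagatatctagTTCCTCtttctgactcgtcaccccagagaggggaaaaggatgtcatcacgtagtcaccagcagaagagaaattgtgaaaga
Cybb and Plek held 1 match each in this stretch and Itgam held 2. None of these 3 genes passed the test described below.

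The comparison of Pck1-CKO with WT bears on whether the Pck1-CKO genotype goes with a different macrophage and myeloid signal in the kidney. The intended loss of Pck1 from the proximal tubule was not seen with the 1 Pck1 probe. No macrophage or myeloid gene passed the limma test at an adjusted p under 0.05, where 8.04% of all genes did. Before adjustment, p was under 0.05 for 4 higher and 6 lower genes, 31.2% of the 32 tested, against 31.2% of all genes (17.5% higher and 13.7% lower). The 3 arrays of one group lay wholly above the 3 of the other for 12 of 32 genes, 5 with Pck1-CKO above and 7 below. That is 37.5%, against 38.3% of all genes (21.9% above and 16.4% below), so in these totals over both directions the genes were close to the background of the array. By direction, 12.5% were higher and 18.8% lower before adjustment. The 4 higher genes and the 5 with Pck1-CKO above include Cd163, whose dim probe passed the filter through Pck1-CKO alone. The median log2 change of the 32 genes was -0.0055, against 0.0091 over all genes tested, with 15 positive and 17 negative changes. The median absolute change was 0.12 on the log2 scale, the same to 2 decimals as over all genes. In 25 of the 32 genes the 95% confidence interval of the change stayed within 0.5 on the log2 scale in both directions. In whole kidney RNA, fewer cells of a type and less RNA per cell cannot be told apart.

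**Figure D1:**
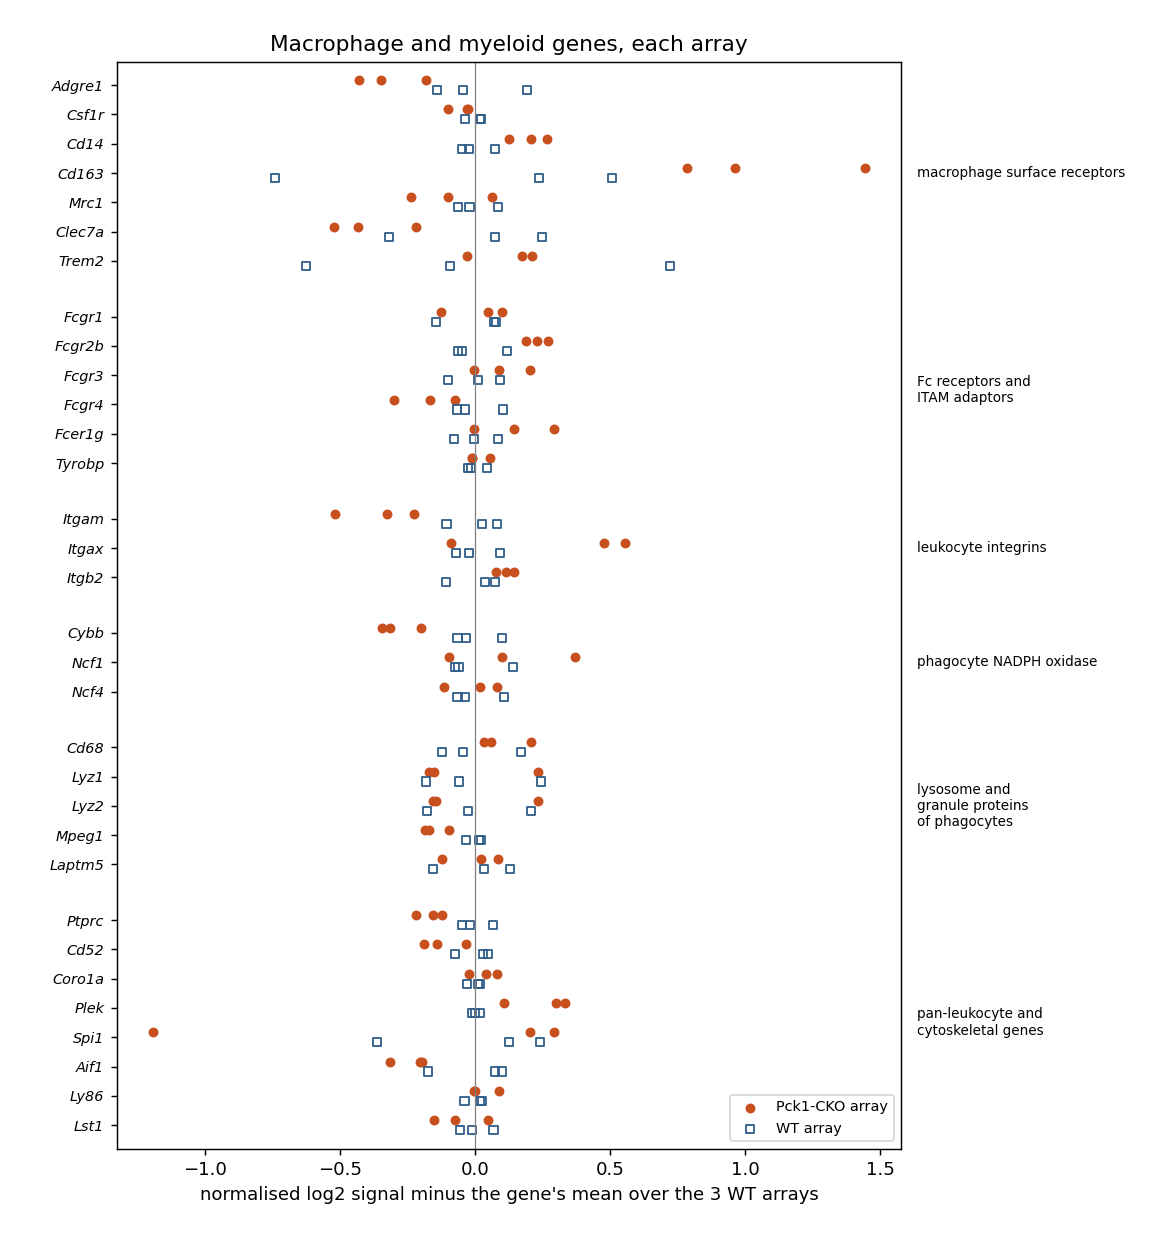
Normalised log2 signal of the 32 tested macrophage and myeloid genes on each array, minus the gene's mean over the 3 WT arrays, with genes grouped by role (filled circles, Pck1-CKO; open squares, WT). In 20 genes the groups overlap. On all 3 Pck1-CKO arrays Adgre1, Fcgr4, Itgam, Cybb, Mpeg1, Ptprc and Aif1 lie below WT, and Cd14, Cd163, Fcgr2b, Itgb2 and Plek above WT.

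Surface receptors that define macrophages had values on both sides of WT, 3 positive and 4 negative among the 7 tested, and none passed the test. All values below are normalised log2 signals, which are the log2 of the processed signal minus the 75th percentile of the array, and levels of different probes are not comparable. Adgre1, which encodes the mouse macrophage marker F4/80, read -0.38, -0.46 and -0.21 in Pck1-CKO and -0.17, -0.08 and 0.16 in WT. Every Pck1-CKO array lay below every WT array, but Pck1-CKO 3 and WT 1 lay close together. This gave a log2 change of -0.32 ± 0.11 (standard error, 3 arrays in each group, limma adjusted p = 0.113), which did not pass.

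Cd14, the co-receptor through which myeloid cells sense bacterial lipopolysaccharide, read 0.13, 0.072 and -0.0080 in Pck1-CKO and -0.18, -0.16 and -0.062 in WT. The groups did not overlap, and the log2 change was 0.20 ± 0.057 (limma adjusted p = 0.0831). Its other tested probe also separated the groups, with a log2 change of 0.26. With median scaling Cd14 passed (log2 change 0.27, limma adjusted p = 0.0385). That scaling also raised the median log2 change over all genes, from 0.0091 to 0.085. Cd14 and Adgre1 thus had opposite signs, and neither passed the test.

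Cd163, the scavenger receptor for haemoglobin bound to haptoglobin, was measured by a dim probe. It read -4.93, -4.75 and -4.27 in Pck1-CKO and -5.48, -5.21 and -6.46 in WT. The probe cleared background in 3 of 3 Pck1-CKO samples and in 1 of 3 WT samples, and so passed the filter through Pck1-CKO alone. The log2 change was 1.06 ± 0.36 (limma adjusted p = 0.113). WT 3 was the lowest array, and without it the log2 change was 0.69. Under normexp background correction it was 0.17. The other Cd163 probe stayed near background throughout.

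The remaining receptors overlapped between groups. Csf1r, the receptor for the survival signals CSF1 and IL-34, read 4.33, 4.25 and 4.32 in Pck1-CKO and 4.37, 4.37 and 4.31 in WT. Its log2 change was -0.053, with a 95% confidence interval of -0.16 to 0.052, and its other probe gave -0.028. Mrc1, the mannose receptor CD206, had a log2 change of -0.091 (95% confidence interval -0.31 to 0.13). Clec7a, which encodes the fungal glucan receptor dectin-1, had a log2 change of -0.39 ± 0.16 and was dim, and with normexp the change was -0.040. Trem2, a lipid-sensing receptor of macrophages and microglia, read -2.95, -2.99 and -3.19 in Pck1-CKO and -3.25, -3.79 and -2.44 in WT. The WT arrays of Trem2 enclosed all Pck1-CKO arrays, and its interval of -0.71 to 0.95 allows a change in either direction. The 2 probes each of Msr1 and Siglec1 were not well above background on any array, so no level is given for either gene.

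Fc receptors bind antibody, and the adaptors Fcer1g and Tyrobp carry the activating signal of many myeloid receptors into the cell. Fcgr2b, the inhibitory Fc receptor, had the lowest p of this group. It read 1.11, 1.15 and 1.19 in Pck1-CKO and 0.86, 0.87 and 1.04 in WT. The groups did not overlap, and the log2 change was 0.23 ± 0.062 (limma adjusted p = 0.0763), 1.17-fold. A second Fcgr2b probe read -0.36, -0.21 and -0.24 in Pck1-CKO and -0.59, -0.57 and -0.38 in WT, again without overlap, with a log2 change of 0.24. WT 3 was the WT array nearest to Pck1-CKO on both probes, and without it the gene passed (log2 change 0.29, limma adjusted p = 0.0388).

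Among activating Fc receptors no gene passed. Fcgr4 read -0.99, -1.08 and -1.21 in Pck1-CKO and -0.95, -0.98 and -0.81 in WT, a log2 change of -0.18 ± 0.078 (limma adjusted p = 0.182). Its groups did not overlap, but Pck1-CKO 1 and WT 2 nearly met. Fcgr1, the high-affinity receptor, and Fcgr3 overlapped, with log2 changes of 0.0068 and 0.096. Tyrobp (DAP12) read 1.53, 1.46 and 1.46 in Pck1-CKO and 1.45, 1.46 and 1.52 in WT, a log2 change of 0.011 with a 95% confidence interval of -0.096 to 0.12. Fcer1g, the common Fc receptor gamma chain, had a log2 change of 0.14 (95% confidence interval -0.074 to 0.36), with overlap. Inhibitory Fcgr2b and activating Fcgr4 thus stood on opposite sides of WT, neither past the test, and the difference between them was not tested.

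The leukocyte integrins pair an alpha chain, Itgam (CD11b) or Itgax (CD11c), with the shared beta chain Itgb2 (CD18). Itgam read 4.81, 4.71 and 4.52 in Pck1-CKO and 5.12, 4.93 and 5.06 in WT. The groups did not overlap, and the log2 change was -0.36 ± 0.092 (limma adjusted p = 0.0677). This probe was bright, with a processed signal between 13360 and 15680 in Pck1-CKO and between 17060 and 19440 in WT. The second Itgam probe, designed to another transcript accession, was dim and overlapped, with -4.66, -5.00 and -4.72 in Pck1-CKO and -4.31, -4.99 and -4.48 in WT. Its log2 change of -0.20 had the same sign. Whether the bright probe also picks up other transcripts was not tested. Itgam passed with normexp (log2 change -0.37, limma adjusted p = 0.0298).

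Itgax read -0.14, -0.22 and -0.79 in Pck1-CKO and -0.72, -0.77 and -0.61 in WT. Pck1-CKO 1 and Pck1-CKO 2 lay above all WT arrays, whereas Pck1-CKO 3 lay below all of them. The log2 change was 0.31 ± 0.18 (limma adjusted p = 0.28), and without Pck1-CKO 3 it passed (0.52, limma adjusted p = 0.0254). Of 3 Itgax probes, only this 1 was well above background on any array. Itgb2 read -1.80, -1.77 and -1.84 in Pck1-CKO and -2.02, -1.84 and -1.88 in WT, a log2 change of 0.11 with a 95% confidence interval of -0.036 to 0.26. The alpha chain of CD11b and the shared beta chain thus had changes of opposite sign, and this difference was not tested.

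The phagocyte NADPH oxidase makes superoxide from a membrane core that includes Cybb (gp91phox) and cytosolic subunits that include Ncf1 (p47phox) and Ncf4 (p40phox). Cybb had the lowest p of the whole set. It read -3.64, -3.67 and -3.52 in Pck1-CKO and -3.36, -3.39 and -3.22 in WT, without overlap. The log2 change was -0.29 ± 0.065 (limma adjusted p = 0.0545). The second Cybb probe, of like brightness and to the same accession, read -3.64, -3.44 and -3.46 in Pck1-CKO and -3.93, -3.46 and -3.50 in WT. Its groups overlapped, and its log2 change of 0.12 had the other sign. The lower Cybb value therefore rests on 1 of 2 probes.

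Ncf1 also had 2 tested probes of opposite sign, with log2 changes of 0.12 and -0.079, and both overlapped. Ncf4 had a log2 change of -0.0057 (95% confidence interval -0.19 to 0.18). Of the partners, Cyba (p22phox) and the GTPase gene Rac2 overlapped between groups, with log2 changes of -0.0049 and -0.048, and neither passed.

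**Figure D2:**
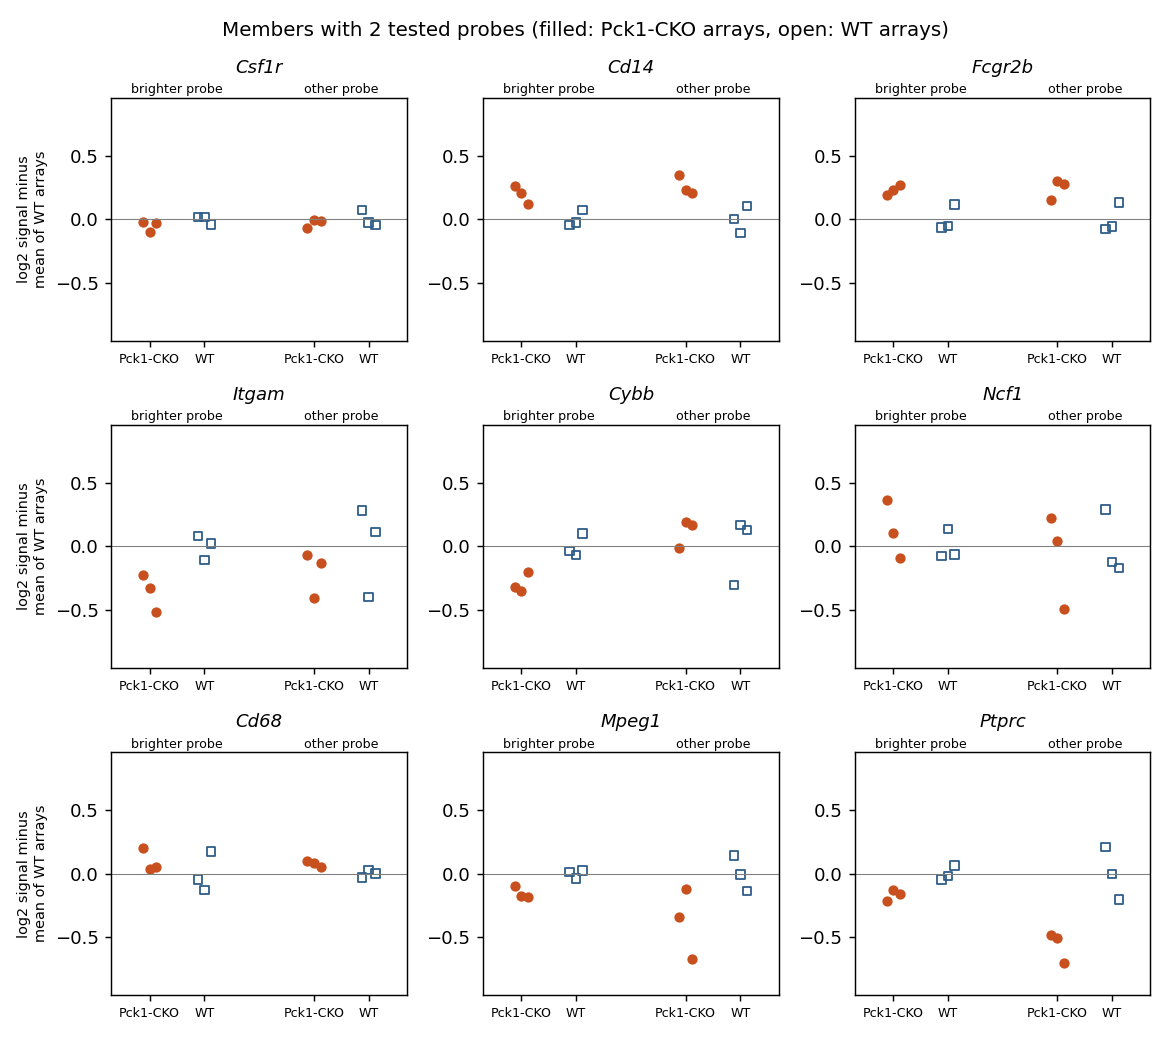
The 9 genes with 2 tested probes each, as normalised log2 signal minus that probe's mean over the WT arrays (filled circles, Pck1-CKO; open squares, WT; the brighter probe stands for the gene). Both probes had the same sign in 7 genes and opposite signs in Cybb and Ncf1.

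None of the 5 genes of the phagocyte lysosome and of granules passed the test. Mpeg1, which encodes the pore-forming protein perforin-2, read 1.23, 1.15 and 1.14 in Pck1-CKO and 1.34, 1.29 and 1.35 in WT. The groups did not overlap, and the log2 change was -0.15 ± 0.044 (limma adjusted p = 0.083). A dimmer Mpeg1 probe gave -0.37 with overlapping groups. Cd68, a lysosomal glycoprotein widely used to stain macrophages, had a log2 change of 0.099 (95% confidence interval -0.13 to 0.33), and Laptm5, a lysosomal membrane protein of blood cells, one of -0.0053.

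The lysozyme genes Lyz1 and Lyz2 are near-identical neighbours. Lyz1 read 0.72, 0.74 and 1.13 in Pck1-CKO and 0.71, 0.83 and 1.14 in WT. Lyz2 read -1.62, -1.61 and -1.23 in Pck1-CKO and -1.65, -1.49 and -1.26 in WT. In both genes Pck1-CKO 3 and WT 3 were the highest arrays of their group, and both groups overlapped throughout. The offset between both probes, whose size has no meaning, stayed between 2.33 and 2.40 on all 6 arrays. Whether the probes share signal was not tested. Their log2 changes were -0.031 and -0.023.

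The last group holds genes of most leukocytes and of the myeloid cytoskeleton. Ptprc, the pan-leukocyte phosphatase CD45, read -0.14, -0.045 and -0.078 in Pck1-CKO and 0.029, 0.059 and 0.14 in WT. The groups did not overlap, with a log2 change of -0.17 ± 0.050 (limma adjusted p = 0.0933). Its second probe read -3.12, -3.14 and -3.34 in Pck1-CKO and -2.43, -2.64 and -2.84 in WT. This dimmer probe also separated the groups, with a log2 change of -0.56. With the mean of both probes Ptprc passed (log2 change -0.36, limma adjusted p = 0.0327).

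Plek, which encodes the platelet and leukocyte protein pleckstrin, had the other sign. It read -1.16, -1.12 and -1.35 in Pck1-CKO and -1.47, -1.44 and -1.46 in WT. The WT arrays lay close together, and Pck1-CKO 3 was the nearest array to them, still above. The log2 change was 0.25 ± 0.069 (limma adjusted p = 0.0799), and Plek passed without Pck1-CKO 3 (0.32, limma adjusted p = 0.0255).

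Aif1, the actin-bundling protein IBA1 of macrophages and microglia, read 0.27, 0.26 and 0.15 in Pck1-CKO and 0.54, 0.57 and 0.30 in WT. The groups did not overlap, WT 3 lay close to Pck1-CKO, and the log2 change was -0.24 ± 0.086 (limma adjusted p = 0.128). Without WT 3 it passed (-0.33, limma adjusted p = 0.0422). Cd52, Coro1a, Ly86 and Lst1 overlapped, with log2 changes between -0.12 (Cd52, a leukocyte surface antigen) and 0.033 (Coro1a, an actin regulator). Spi1, the gene of PU.1 itself, was dim and well above background on 2 of 3 arrays in each group. Its log2 change of -0.23 had a 95% confidence interval of -1.30 to 0.83, so these arrays say little about it.

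**Figure D3:**
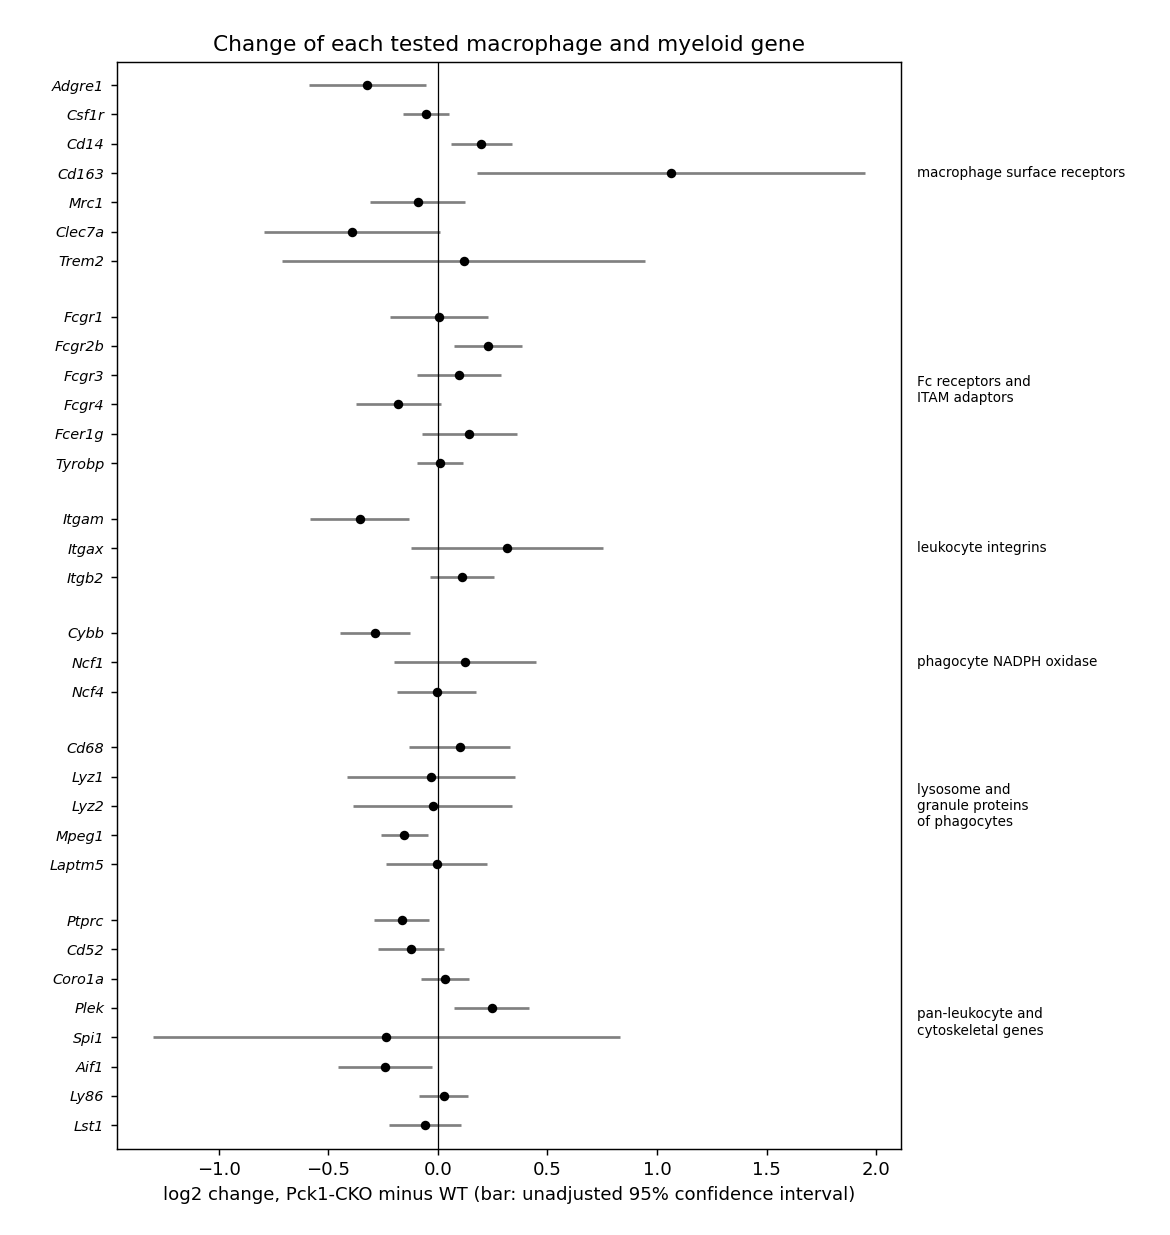
Log2 change of each tested gene, Pck1-CKO minus WT, with its unadjusted 95% confidence interval from limma (n = 3 arrays per group). The intervals of 22 of 32 genes hold 0, and the widest belong to Spi1, Cd163 and Trem2.

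Some genes of signals that act on these receptors were higher in Pck1-CKO. Of 10 genes listed as ligands or partners of myeloid receptors, 2 rose and 0 fell, against 4.34% higher and 3.7% lower among all genes. Il34, which encodes a ligand of the Csf1r receptor, read 1.85, 1.78 and 1.63 in Pck1-CKO and 0.91, 0.99 and 0.51 in WT. It rose by 0.95 ± 0.14 (limma adjusted p = 0.0283), 1.93-fold. The other ligand gene, Csf1, read -0.042, -0.14 and 0.010 in Pck1-CKO and -0.30, -0.23 and -0.37 in WT. Its log2 change was 0.24 ± 0.059 (limma adjusted p = 0.0609), without overlap. Both ligand genes thus lay above WT on every Pck1-CKO array, while Csf1r overlapped. The difference between ligand and receptor was not tested.

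Hp, whose product haptoglobin is bound by the Cd163 receptor together with haemoglobin, rose by 3.63 ± 0.53 (limma adjusted p = 0.0283). It read 3.03, 2.52 and 2.58 in Pck1-CKO and -2.12, -0.11 and -0.54 in WT. C3, whose fragment iC3b is a ligand of CD11b/CD18, read 3.11, 3.14 and 3.49 in Pck1-CKO and 2.22, 2.74 and 2.52 in WT, a log2 change of 0.76 ± 0.17 (limma adjusted p = 0.0513). Apoe, Lbp, Icam1, Tlr4, Cd47 and Anxa1 had log2 changes between -0.072 and 0.12, and none passed. Il34 did not pass without Pck1-CKO 1, Pck1-CKO 2, WT 1 or WT 2 (limma adjusted p between 0.0775 and 0.118). Hp did not pass without Pck1-CKO 1, Pck1-CKO 2 or WT 2 (limma adjusted p between 0.0706 and 0.112). Of 8 adipocyte markers, 3 rose and 0 fell, against 4.34% higher and 3.7% lower among all genes. These 3 were Fabp4, a fatty acid carrier (log2 change 1.25), Ucp1, the brown fat uncoupling protein (5.23), and Cidea, a lipid droplet protein (3.83), with limma adjusted p of 0.0280, 0.0317 and 0.0392. Lep, the gene of leptin, overlapped between groups (0.037). As Pck1 is itself a gene of adipocytes and on the list, sums are given without it, a choice made after seeing the data. The mean deviation of the other 7 from each gene's own mean was 1.28, 1.15 and 1.70 in Pck1-CKO and -2.66, -0.63 and -0.85 in WT (log2). Their summed scaled signal was between 65.4 and 87.4 in Pck1-CKO and between 13.6 and 22.8 in WT. Their part in the ligand values was not tested.

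**Figure D4:**
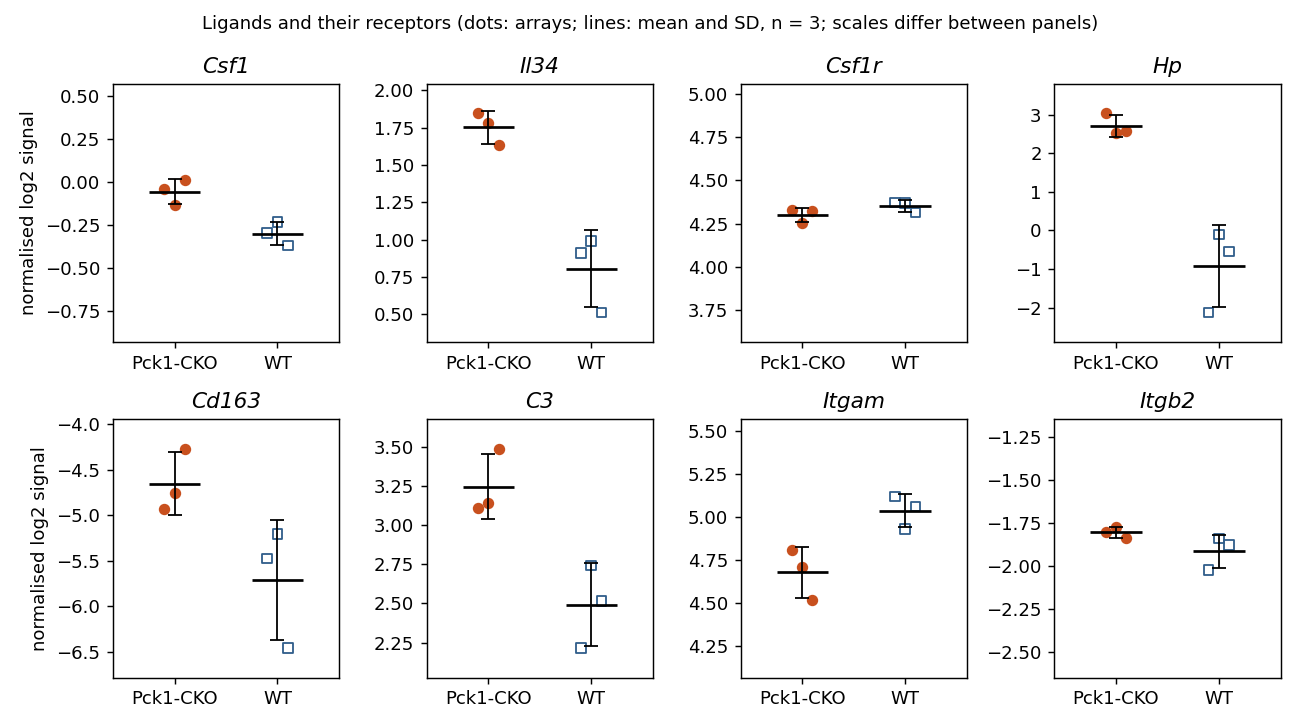
Normalised log2 signal per array of ligand genes (Csf1, Il34, Hp, C3) and of receptor genes they act on (Csf1r, Cd163, Itgam, Itgb2), with mean and SD (n = 3; axes differ between panels). Il34 and Hp separate widely, Csf1r overlaps between groups, and Itgam lies lower in Pck1-CKO.

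In a wider list of 45 myeloid genes, 40 were tested, of which 0 rose and 1 fell. That is 2.5% of the 40, against 8.04% of all genes (4.34% higher and 3.7% lower). The median log2 change of the 40 was 0.018. Before adjustment 10 higher and 6 lower genes had p under 0.05, 40% of those tested (25% higher and 15% lower). Among all genes this share was 31.2% (17.5% higher and 13.7% lower). The groups did not overlap for 37.5% of these 40 genes, against 38.3% of all genes. The gene that fell was Apobec1, an RNA-editing enzyme of gut, liver and macrophages. It read 0.40, 0.34 and 0.38 in Pck1-CKO and 0.73, 0.68 and 0.82 in WT, a log2 change of -0.37 ± 0.051 (limma adjusted p = 0.0267). Apobec1 did not pass without Pck1-CKO 1, Pck1-CKO 2, WT 1 or WT 2 (limma adjusted p between 0.0791 and 0.118). Of 24 partners in myeloid signalling and the oxidase, 0 passed in limma, against 8.04% of all genes. Before adjustment, against 31.2% of all genes, 20.8% of the 24 partners had p under 0.05, 2 higher and 3 lower. The lowest p among them was that of Lcp1, the leukocyte actin bundler L-plastin, with a log2 change of 0.23 ± 0.055 (limma adjusted p = 0.0564). As a mean over the tested genes, the deviation of the macrophage and myeloid set was 0.046, -0.037 and -0.0050 in Pck1-CKO and -0.045, -0.0010 and 0.042 in WT, so the groups overlapped.

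Some markers of other blood cells passed the test, which 8.04% of all genes passed. Of 9 neutrophil markers, 2 rose and 0 fell, against 4.34% higher and 3.7% lower among all genes. S100a8, one chain of calprotectin, read -0.29, -0.11 and -0.95 in Pck1-CKO and -2.21, -2.45 and -1.79 in WT, and rose by 1.70 ± 0.27 (limma adjusted p = 0.0308). S100a9, the other chain, read 1.77, 1.92 and 1.24 in Pck1-CKO and -0.22, -0.21 and 0.52 in WT, and rose by 1.61 ± 0.27 (limma adjusted p = 0.0328). Ly6g, the neutrophil surface marker, had a log2 change of -0.23 and did not pass, and 5 of the 9 changes were positive and 4 negative. The summed signal of the 9 was between 5.49 and 7.44 in Pck1-CKO and between 3.88 and 4.66 in WT. Without S100a8 and S100a9, left out after seeing the data, that of the other 7 was between 2.61 and 2.88 in Pck1-CKO and between 2.83 and 3.18 in WT, and the groups overlapped. The mean log2 deviation of these 7 was 0.093, 0.14 and 0.039 in Pck1-CKO and -0.094, -0.22 and 0.035 in WT. By that measure Pck1-CKO lay higher without overlap, though Pck1-CKO 3 and WT 3 nearly met. These 7 include Cxcr2 (log2 change 0.80), whose probe cleared background on 3 of 3 Pck1-CKO arrays and 1 of 3 WT arrays. Cxcr2 thus passed the filter through Pck1-CKO alone. The mean without it was not computed, so no higher level of the other neutrophil markers is read from this mean.

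Of 7 dendritic cell markers tested, Cd209a (a lectin of monocyte-derived dendritic cells) rose by 0.56 ± 0.056 (limma adjusted p = 0.0152). Clec9a, a receptor of cross-presenting dendritic cells, changed by -0.78 ± 0.13 (limma adjusted p = 0.0348). Both read without overlap, with -2.76, -2.83 and -2.80 in Pck1-CKO and -3.39, -3.27 and -3.43 in WT for Cd209a, and -3.18, -3.34 and -3.05 in Pck1-CKO and -2.29, -2.27 and -2.67 in WT for Clec9a. All 12 T and NK cell markers tested had negative changes, as did all 6 endothelial markers and all 3 tested mast cell markers. Among all genes tested 47.8% had negative changes. Gzma, a granzyme of killer cells, was the 1 T and NK cell marker that passed. It read -1.33, -1.35 and -0.91 in Pck1-CKO and 0.038, 0.20 and -0.40 in WT, a log2 change of -1.15 ± 0.20 (limma adjusted p = 0.0349). Of 6 tested B cell and plasma cell markers, 3 changes were positive and 3 negative. Before adjustment 0 higher and 3 lower had p under 0.05. Jchain and Mzb1 overlapped between groups, with log2 changes of 0.69 and 0.44. The 1 marker of this list that passed was Cd79b, a chain of the B cell receptor. It read -1.30, -1.27 and -1.04 in Pck1-CKO and -0.77, -0.79 and -0.73 in WT, a log2 change of -0.44 ± 0.078 (limma adjusted p = 0.0356). Of the mast cell markers 3 of 6 were tested and none passed in limma. Before adjustment 1 of them had p under 0.05, Kit, the receptor of stem cell factor, at a log2 change of -0.35. The calls of S100a8, S100a9, Clec9a, Gzma and Cd79b were lost without Pck1-CKO 1, Pck1-CKO 2, WT 1 or WT 2, that of Cd79b also without WT 3, and that of Cd209a without Pck1-CKO 1, Pck1-CKO 2 or WT 1. Lymphocytes and neutrophils also express Ptprc, Coro1a, Cd52 or Itgam, and the part of those cells in the values of these genes was not tested.

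**Figure D5:**
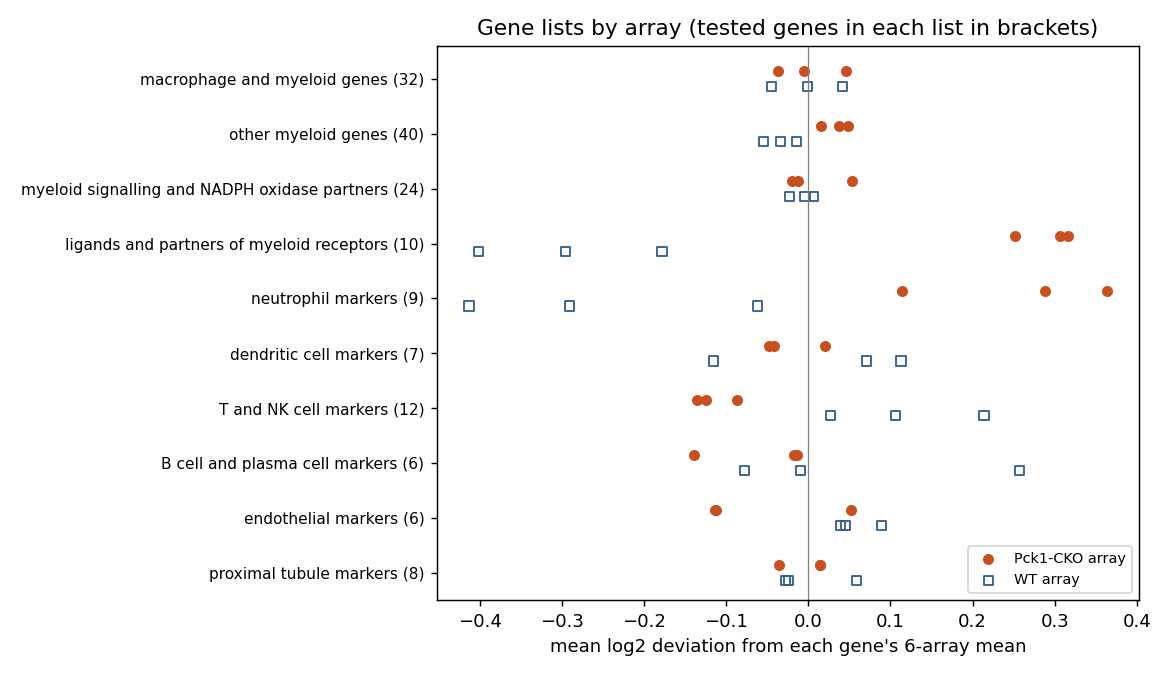
Mean log2 deviation of each gene list on each array from the genes' own 6-array means (filled circles, Pck1-CKO; open squares, WT; number of tested genes in brackets). The macrophage and myeloid genes overlap between groups, whereas the means of the ligand list and the neutrophil list lie higher and that of the T and NK cell list lower on all 3 Pck1-CKO arrays. The median deviation of the neutrophil list overlapped, at 0.080, -0.0050 and 0.17 in Pck1-CKO and 0.035, -0.22 and 0.039 in WT.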

How the data were processed

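Cy3-labelled RNA of 6 whole kidney samples was measured on 1-colour Agilent arrays, per the labels' protocols. Intensity values in the deposited files come from Agilent Feature Extraction 10.7.1.1, which subtracted background and detrended the processed signal, per the file headers. The series matrix was deposited as a linear ratio, the authors' processed signal over 1 factor per array: between 99.7% and 99.9% of the probes past the filter lay within 0.05 (log2) of such a constant factor. Its column medians were 0.0990, 0.0970 and 0.0980 for Pck1-CKO and 0.104, 0.103 and 0.102 for WT, and it was used as an alternative.

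Flagged spots (46 to 94 per array) were left out, spots of 1 probe were averaged on the log2 scale, and the 75th percentile of the array was subtracted. No spot was saturated. Probes were named through RefSeq accessions (GRCm38.p6 table) and kept when 3 or more of the 6 arrays had them well above background. The brightest probe stood for a gene. Genotype was the only term in the limma fit (version 3.58.1, R 4.3.3, lmFit then eBayes) of all 17136 genes. Tests were 2-sided, p-values were adjusted by Benjamini-Hochberg over these genes, and the threshold was 0.05. The procedure was tested on simulated data in which genes varied independently, so that test does not cover variation shared by genes on an array. Full values are given for genes with an unadjusted p under 0.05 or the lowest p of their role group, and in other lists for up to 4 genes past the threshold or the 1 with the lowest p, besides Csf1r, Trem2, Fcgr4, Tyrobp, Itgax, Itgb2, the lysozymes, and other genes named as ligands, oxidase partners or list markers, which were chosen after their values were seen. The genes and lists were chosen with earlier results of these data known. Alternatives covered scaling, background, source of values, filter, probe choice, variance model, flags, left-out arrays and a replicate block. The arrays shared 1 slide and scan, so no slide block was possible. The number of arrays limits the precision. Arrays with the same number did not deviate together (r = -0.0010, -0.12 and -0.023).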

Additional observations from a re-analysis of the deposited data

How the results depend on the processing

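Each result was recomputed under 17 alternatives. Of 542 values of the macrophage and myeloid genes, 480 kept their direction and side of the threshold, 23 passed where they had not, and 39 changed sign. The number of these genes past the threshold was 0, and it was 3 with median scaling, 1 with normexp, 1 with probes well above background on all arrays, 1 with the mean of probes, 2 with trend and robust eBayes and 11 with array weights. Leaving out 1 array gave 0 to 2. Among all genes the number past the threshold was 2994 with median scaling, 142 without a filter, 2831 with trend and robust eBayes, 5899 with array weights, and 25 to 1531 on leaving out 1 array. With the replicate number as a block it was 4, and 0 of the macrophage and myeloid genes passed. Of the wider myeloid, partner and ligand lists 3 genes passed, against 14 with median scaling, 9 with normexp, 0 without a filter, 6 with probes above background on all arrays, 15 with trend and robust eBayes, 29 with array weights, 0 with the replicate block and 0 to 9 on leaving out 1 array. The median log2 change of the set, -0.0055, was 0.070 with median scaling, where the median of all genes was 0.085, and lay between -0.041 and 0.040 on leaving out 1 array.

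The log2 changes that turned sign were, with quantile normalization, -0.027 for Tyrobp, 0.015 for Ncf4, 0.012 for Lyz2, 0.023 for Laptm5 and -0.0064 for Coro1a. With median scaling they were 0.023 for Csf1r, 0.070 for Ncf4, 0.045 for Lyz1, 0.052 for Lyz2, 0.071 for Laptm5 and 0.016 for Lst1. With normexp they were -0.0080 for Trem2, -0.044 for Fcgr1, -0.0051 for Tyrobp, -0.018 for Ncf1 and 0.025 for Ncf4. With array weights they were -0.068 for Fcgr1, 0.078 for Ncf4 and 0.037 for Laptm5. On leaving out 1 array the log2 changes ranged from -0.20 to 0.48 for Trem2, -0.067 to 0.073 for Fcgr1, -0.012 to 0.032 for Tyrobp, -1.64e-06 to 0.23 for Ncf1, -0.048 to 0.049 for Ncf4, -0.16 to 0.090 for Lyz1, -0.15 to 0.080 for Lyz2, -0.085 to 0.059 for Laptm5, -0.50 to 0.25 for Spi1 and -0.0022 to 0.044 for Ly86. The causes were not tested. Cd163 and Spi1 were each below the background limit on some arrays.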
